A study of Mus musculus with 10 samples.

Results

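Glucocorticoid-responsive genes were followed in the aortae of young and old mice: the glucocorticoid receptor gene *Nr3c1* and 8 of its well known target genes, *Fkbp5*, *Tsc22d3*, *Zbtb16*, *Sgk1*, *Mt1*, *Mt2*, *Pdk4* and *Errfi1*. They were taken by gene symbol from a table of 55453 symbols, of which 28011 had at least 1 read. All 9 were found, and all 9 passed the filter on low counts that left 14614 genes for testing. RNA sequencing was performed on whole aortae of 5 young (14.5 weeks) and 5 old (92.5 weeks, by the sample labels) male C57BL/6 mice, 1 library per mouse. The mice of both groups were bought in, kept on standard chow and sacrificed at the same time, and the labels give no treatment and no allele beyond the strain for either group. Blood was flushed out with saline and the outer fat was trimmed off beforehand. Levels of corticosterone, the glucocorticoid of mice, were not part of the processed data analysed here.

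Glucocorticoids are steroid hormones of the adrenal cortex that are released in a daily rhythm and in response to stress. Inside the cell they bind the glucocorticoid receptor, which is held ready by heat shock protein 90 and its helper proteins, moves into the nucleus and binds glucocorticoid response elements near its target genes. In the vessel wall the hormone acts on smooth muscle, endothelial and immune cells, where it is known for its effects on vascular tone and for damping inflammation. Its level in tissue is also set by local enzymes that activate or inactivate it.

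Of the 9 genes, *Errfi1* alone passed the test between ages, and it was downregulated in old aortae. *Errfi1* encodes a feedback inhibitor of the epidermal growth factor receptor family, and its old level was 0.389 times the young level (95% confidence interval 0.273 to 0.552). *Nr3c1* itself stood at 4081 ± 432 normalized counts (SD, n = 5) in the young group and at 3887 ± 286 (SD, n = 5) in the old group, a difference within the spread between mice. The remaining 7 target genes overlapped between ages and differed far more between mice of the same age than most genes did, and the same aortae were high or low for many of them.

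The aortae gave between 19640401 and 22886153 counted reads each, and normalized counts are reads divided by the size factor of the library. Smooth muscle genes dominated all libraries, with a summed normalized level of 7 markers between 736475 and 945758, as fits the label of the tissue. Transcripts of the mitochondrial genome took 11% of the reads in old replicate 2 and 4.5% to 6.51% in the other 9 aortae. In whole vessels, fewer cells of a type and less RNA per cell cannot be told apart.

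Promoter sequences are given first, to describe which known control elements stand close to the starts of these genes. They came from RefSeq (GRCm38.p6) and covered 250 bases before to 50 bases after a transcription start. Of the 9 genes, 7 matched, with 15 promoters between them, and *Nr3c1* and *Zbtb16* did not. The glucocorticoid half-site TGTTCT, searched on both strands, stood in 19% of 32851 promoters and in 4 of these 15, which belong to *Tsc22d3* and *Sgk1*. The full palindromic glucocorticoid response element, which is the half-site led by its own reverse complement with 3 free bases between them, stood in 3 of the 32851 promoters, or 0.00913%, and each match also counts as a half-site. *Sgk1* had 1 of these 3, at 189 to 175 bases before start 5 of the 6 listed for the gene. The core of the metal response element, TGCACNC or TGCGCNC on either strand, is bound by the metal sensor MTF1. It stood in 25.7% of all promoters and in 3 of these 15, with 3 matches at *Mt1*, 4 at *Mt2* and 1 at *Sgk1*. The cAMP response element TGACGTCA, which reads the same on both strands, stood in 1.79% of promoters and at 51 to 44 bases before the second of the *Errfi1* starts. Of these, 4 stretches are given below 5′ to 3′ from 250 bases before to 30 bases after the start, to show the full element, the elements of the metallothionein genes and the cAMP response element. Capitals mark the motif named on each line, and half-sites outside the full element stay in lower case.
*Sgk1*, start 5, chr10:21993640-21993919, plus strand, glucocorticoid response element: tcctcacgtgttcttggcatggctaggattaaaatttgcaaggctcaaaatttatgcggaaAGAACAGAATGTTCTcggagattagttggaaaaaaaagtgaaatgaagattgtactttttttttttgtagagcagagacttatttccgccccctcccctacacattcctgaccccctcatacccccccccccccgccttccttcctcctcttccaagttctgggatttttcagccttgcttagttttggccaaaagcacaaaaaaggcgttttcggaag
*Mt1*, chr8:94178839-94179118, plus strand, metal response cores: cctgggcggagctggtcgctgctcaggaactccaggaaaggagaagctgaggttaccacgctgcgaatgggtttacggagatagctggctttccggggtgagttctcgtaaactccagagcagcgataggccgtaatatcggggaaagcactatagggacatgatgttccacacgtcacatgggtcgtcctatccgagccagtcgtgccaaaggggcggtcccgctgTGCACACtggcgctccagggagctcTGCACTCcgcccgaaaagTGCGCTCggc
*Mt2*, chr8:94172368-94172647, plus strand, metal response cores: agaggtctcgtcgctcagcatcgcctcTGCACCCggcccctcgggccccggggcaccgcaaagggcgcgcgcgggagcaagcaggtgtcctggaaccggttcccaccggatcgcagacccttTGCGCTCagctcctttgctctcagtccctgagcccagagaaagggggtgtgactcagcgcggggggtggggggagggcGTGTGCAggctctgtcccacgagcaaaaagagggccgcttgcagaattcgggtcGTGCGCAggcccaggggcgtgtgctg
*Errfi1*, the second start, chr4:150854820-150855099, plus strand, cAMP response element: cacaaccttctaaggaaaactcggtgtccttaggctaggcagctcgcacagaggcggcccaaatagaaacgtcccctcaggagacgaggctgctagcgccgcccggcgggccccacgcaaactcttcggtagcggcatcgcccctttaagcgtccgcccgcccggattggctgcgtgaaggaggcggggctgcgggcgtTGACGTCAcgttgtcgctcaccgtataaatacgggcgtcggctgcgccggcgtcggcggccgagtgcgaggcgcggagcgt
The response element of *Sgk1* at chr10:21993701-21993715 read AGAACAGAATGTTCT and lay in intronic sequence of the gene, spanned by 5 of its 13 annotated transcripts (GENCODE M21). The *Mt1* and *Mt2* starts lie next to each other on the chromosome. Just after the start, 2 of the 3 matches at *Mt1* fell in an exon, spanned by 1 of its 3 annotated transcripts. A match is a description of these letters and no measure of binding, and the absence of a match says only that the letters are not in these windows.

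The receptor gene *Nr3c1* (chromosome 18, 39410545 to 39519421, minus strand, GRCm38) was read steadily in all aortae. Its normalized counts were 4531, 3865, 4396, 3455 and 4156 in young replicates 1 to 5. In old replicates 1 to 5 they were 3801, 3689, 3869, 4381 and 3694. All old values lay within the range of the young ones. The log2 fold change of old over young was -0.06 (SE 0.079, 95% confidence interval -0.23 to 0.11), with an adjusted p of 0.669 in edgeR's quasi-likelihood test with Benjamini-Hochberg adjustment over all tested genes, the test used throughout. A change of the receptor transcript beyond 0.852 to 1.08 times the young level lay outside this interval.

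*Errfi1* (chromosome 4, 150853919 to 150868892, plus strand) was the only member with groups that did not overlap. Its normalized counts were 4203, 3700, 3619, 6391 and 5900 in young replicates 1 to 5. They were 1844, 2511, 1121, 1823 and 1904 in old replicates 1 to 5. The highest old aorta, replicate 2, stayed below the lowest young one, replicate 3. The means were 4762 ± 1294 and 1840 ± 493 (SD, n = 5 each), the log2 fold change was -1.36 (SE 0.228, 95% confidence interval -1.87 to -0.86), and the adjusted p was 0.00447. It ranked 423 by p among the 14614 tested genes. Omitting any of the 10 aortae moved this log2 value to between -1.51 and -1.23 and the adjusted p between 0.00391 and 0.0138. The call of 1 member in 9, or 11.1%, is to be read against 11.5% of all tested genes called, made up of 6.48% upregulated and 4.99% downregulated with age. Non-overlapping groups were found for 9.92% of all tested genes. As a list, the 9 genes were therefore called at about the rate of any genes.

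Marker genes of the cell types of the vessel were set beside the fall of *Errfi1*, and their part in it was not tested. Over all tested genes edgeR called 6.48% higher and 4.99% lower. Of 7 endothelial markers, *Tek*, a receptor of the vessel lining, was lower in old aortae (log2 fold change -0.87, adjusted p = 0.0381, edgeR) and none was higher, and their summed normalized level ranged from 20550 to 35372 in young and from 10378 to 23932 in old aortae. At an unadjusted p of 0.05 edgeR had 6 of the 7 endothelial markers lower, and DESeq2 called 5 of them lower. Of 7 fibroblast markers 3 were lower and 1 was higher, with sums of 190316 to 231187 and 130146 to 187988. Those lower were *Pi16* and the collagen genes *Col1a1* (means of 58611 in young and 31070 in old aortae) and *Col1a2* (88264 and 52121). *Lum* was higher, and *Pdgfra*, *Dpt* and *Dcn* were not called. The collagen genes weighed most in these sums, so the lower sums are no measure of the number of fibroblasts. Of 7 macrophage markers 3 were higher and none was lower (DESeq2 called 7 higher), with sums of 7561 to 9711 in young and 9772 to 19515 in old aortae. Of 7 smooth muscle markers 1 was higher and none was lower. Of 8 adipocyte markers none passed the edgeR test (5 were lower at an unadjusted p of 0.05 and 2 by DESeq2), although the list had a median of -1.02 on the log2 scale and its sums ranged from 7432 to 27633 in young and from 3582 to 10262 in old aortae. Of 4 tested lymphocyte markers 1 was higher in edgeR and 3 in DESeq2, with a median log2 fold change of 1.5 and sums of 16.1 to 97.1 in young and 62 to 451 in old aortae. Of 6 tested striated muscle markers 2 were higher and 1 was lower, and of 6 Schwann cell markers 1 was lower. No marker of these lists was at 0 in every aorta.

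**Figure D1:**
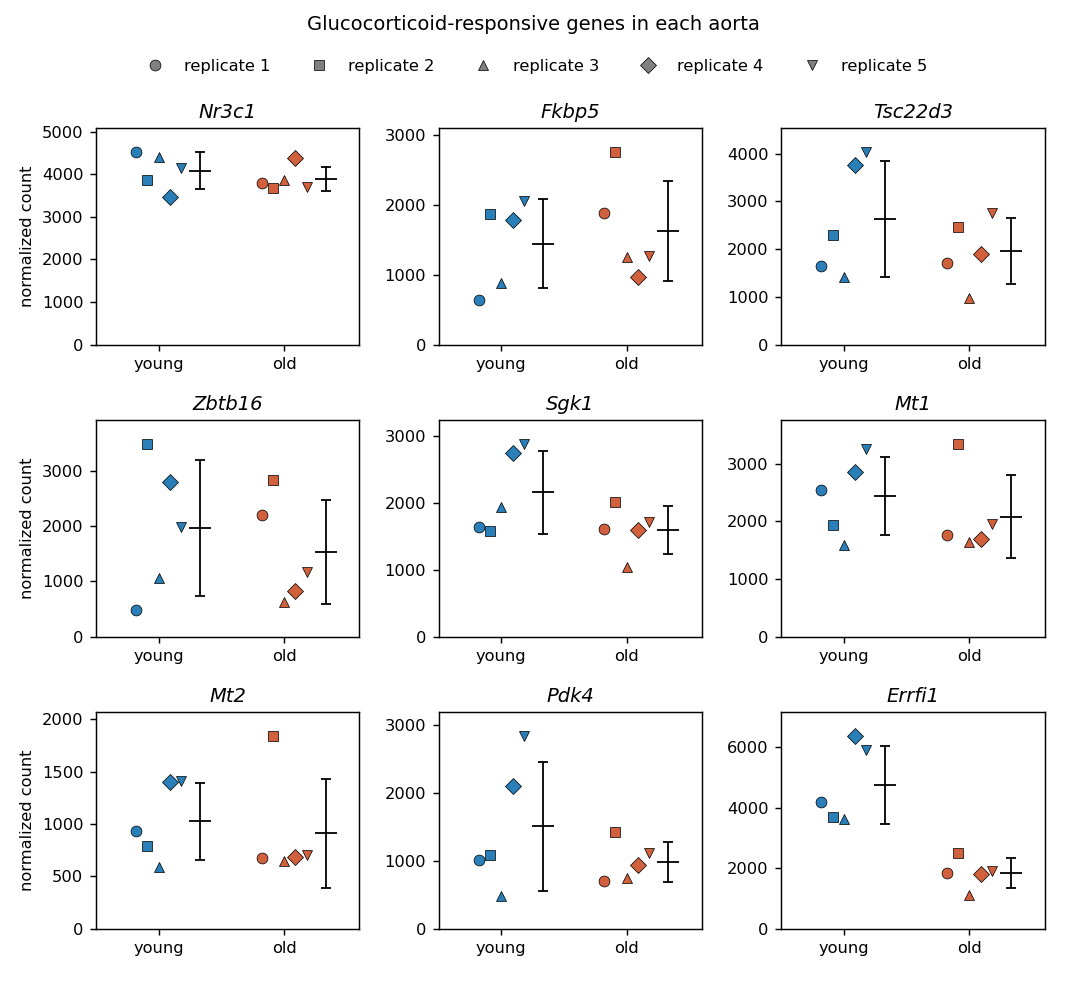
Normalized counts (vertical axis, from 0) of the 9 genes in each of the 5 young (blue) and 5 old (orange) aortae, with the mean and SD of each group in black and a marker shape for each replicate number. The old points lie below all young points for *Errfi1*, between 1121 and 2511 against 3619 to 6391, and overlap with the young points for the other 8 genes.

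*Fkbp5* (chromosome 17, 28399094 to 28517527, minus strand) encodes a cochaperone that lowers the hormone affinity of the receptor, and so acts back on the pathway that induces it. Its normalized counts were 637, 1865, 879, 1784 and 2048 in young replicates 1 to 5 and 1882, 2757, 1249, 969 and 1266 in old replicates 1 to 5. Young replicates 1 and 3 were low and old replicate 2 was high, and the groups overlapped. The log2 fold change was 0.18 (SE 0.389), adjusted p = 0.820 in edgeR, and the interval of the fold ran from 0.617 to 2.08. The sign of this small difference turned when young replicate 1 (-0.01) or old replicate 2 (-0.10) was left out.

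*Tsc22d3* (chromosome X, 140539528 to 140600659, minus strand) encodes GILZ, a leucine zipper protein that carries part of the anti-inflammatory action of the hormone. The aortae held 1654, 2302, 1409, 3770 and 4044 normalized counts in young and 1709, 2473, 970, 1896 and 2763 in old replicates 1 to 5. Young replicates 4 and 5 exceeded all other aortae, and old replicate 3 was the lowest of the 10. Old over young gave a log2 fold change of -0.42 (SE 0.365), adjusted p = 0.520 in edgeR.

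*Zbtb16* (chromosome 9, 48654297 to 48836222, minus strand) encodes the zinc finger transcription factor PLZF. Levels were 485, 3496, 1072, 2804 and 1989 normalized counts in young and 2202, 2831, 633, 828 and 1166 in old replicates 1 to 5. Within the young group alone the highest aorta had 7.21 times the level of the lowest, and within the old group 4.47 times. The log2 fold change was -0.36 (SE 0.576), adjusted p = 0.752 in edgeR, and the interval of the fold, 0.318 to 1.92, was the widest of the 9 genes.

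*Sgk1* (chromosome 10, 21882184 to 21999903, plus strand) encodes a kinase that regulates ion channels and is induced through both the glucocorticoid and the mineralocorticoid receptor. Its normalized counts were 1636, 1584, 1941, 2745 and 2887 in young and 1612, 2014, 1042, 1599 and 1714 in old replicates 1 to 5. All 5 old aortae were below the young mean of 2159 ± 618, but only old replicate 3 was below the lowest young one. The log2 fold change was -0.43 (SE 0.214, 95% confidence interval -0.90 to 0.05), adjusted p = 0.235 in edgeR.

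*Mt1* (chromosome 8, 94179082 to 94180327, plus strand) and *Mt2* (chromosome 8, 94172664 to 94173568, plus strand) encode metallothioneins, small proteins that bind zinc and copper. *Mt1* had 2537, 1933, 1588, 2847 and 3258 normalized counts in young and 1768, 3348, 1651, 1688 and 1961 in old replicates 1 to 5. *Mt2* had 928, 794, 593, 1405 and 1407 in young and 674, 1844, 645, 683 and 702 in old replicates 1 to 5. For both, old replicate 2 was the highest of all 10 aortae, and the other 4 old aortae lay close together near the lower end of the young range. The log2 fold changes were -0.22 (SE 0.248, adjusted p = 0.639, edgeR) and -0.17 (SE 0.369, adjusted p = 0.824). Without old replicate 2 they were -0.46 (adjusted p = 0.167) and -0.60 (adjusted p = 0.163). The annotated transcript of *Gm45774* on the opposite strand covers 73.5% of the exonic length of *Mt2*, and that gene had 0 to 11 raw counts per aorta. Of 7 other metal-handling genes tested, 0 passed in edgeR in either direction (2 were lower at an unadjusted p of 0.05, and 1 by DESeq2), with a median log2 fold change of -0.04.

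*Pdk4* (chromosome 6, 5483351 to 5496309, minus strand) encodes a kinase that shuts off pyruvate dehydrogenase and so turns cells from glucose to fatty acids. There were 1018, 1092, 481, 2104 and 2844 normalized counts in young and 710, 1429, 743, 944 and 1114 in old replicates 1 to 5. Young replicates 4 and 5 stood above all old aortae and young replicate 3 below all of them. Between ages *Pdk4* had a log2 fold change of -0.60 (SE 0.437, 95% confidence interval -1.59 to 0.38), adjusted p = 0.430 in edgeR. Of 13 tested genes of the fasting and lipid response 2 were higher in old aortae and none was lower, against 6.48% and 4.99% of all tested genes. Among those higher was the mitochondrial carrier gene *Ucp2* (log2 fold change 0.78, adjusted p = 0.0114, edgeR).

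**Figure D2:**
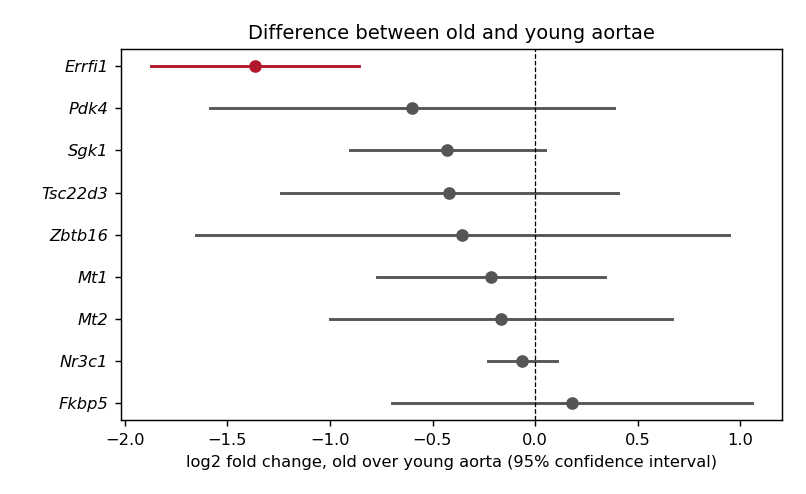
Log2 fold change of old over young aortae (horizontal axis) for the 9 genes, with 95% confidence intervals as lines and the dashed line at 0; red marks an adjusted p below 0.05. The interval of *Errfi1*, from -1.87 to -0.86, is the only one that does not cross 0, and the interval of *Nr3c1*, from -0.23 to 0.11, is the narrowest.

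Taking the 9 genes as a list, 8 had a negative log2 fold change, against 49.2% of all tested genes. Their median log2 fold change was -0.36, and that of all tested genes was 0.0034. At an unadjusted p under 0.05 the list had 1 gene, *Errfi1*, while 3902 of the 14614 tested genes passed that limit. Single aortae moved the values that were not called: with each left out, the log2 fold change ran from -0.70 to -0.05 for *Zbtb16*, from -0.83 to -0.25 for *Pdk4*, from -0.58 to -0.22 for *Tsc22d3* and from -0.12 to -0.02 for *Nr3c1*, and none of them was called in any of these fits. The genes were not independent of each other, as described below, so this shared direction does not count as 8 separate observations.

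Per kilobase of exonic sequence, the metallothioneins were the most abundant of the 9 transcripts. In young aortae *Mt1* had 1952 ± 542 and *Mt2* 1744 ± 624 normalized counts per kilobase, followed by *Errfi1* with 1330 ± 361. *Tsc22d3* (607 ± 279), *Nr3c1* (531 ± 56.2), *Sgk1* (440 ± 126), *Pdk4* (429 ± 271) and *Zbtb16* (373 ± 233) came next, and *Fkbp5* was lowest with 152 ± 67.4. In that order, the only neighbours with ranges that did not overlap were *Errfi1* and *Tsc22d3*, with a lowest *Errfi1* value of 1010 and a highest *Tsc22d3* value of 932. In old aortae *Mt1* (1672 ± 575) and *Mt2* (1547 ± 889) again led, while *Errfi1*, at 514 ± 138 per kilobase, had come down among *Nr3c1* (506 ± 37.3) and *Tsc22d3* (452 ± 161). The step without overlap now lay between *Mt2*, with a lowest value of 1097, and *Errfi1*, with a highest value of 701. *Sgk1* (326 ± 71.8), *Zbtb16* (290 ± 179), *Pdk4* (281 ± 84.2) and *Fkbp5* (172 ± 75.6) followed in old aortae, each overlapping with the next.

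Spread between mice of the same age was larger for the target genes than for most tested genes. It was measured as the SD of log2 CPM (counts scaled to library size) within age groups, which does not use the difference between ages. Its median was 0.163 over all tested genes and 0.616 over the 8 targets. *Zbtb16* lay at the 99.7th percentile of all tested genes, *Pdk4* at the 98.5th, *Fkbp5* at the 97.5th, *Tsc22d3* at the 96.6th and *Mt2* at the 95.6th. *Mt1*, *Errfi1* and *Sgk1* lay at the 87.2th, 85.5th and 83.9th percentile, and *Nr3c1* at the 37.9th. The 5 targets above the 90th percentile are thus the ones for which 5 mice per group gave the widest intervals between ages. The spread was larger in young than in old aortae for 5 of 8 targets, against 49.6% of all genes.

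**Figure D3:**
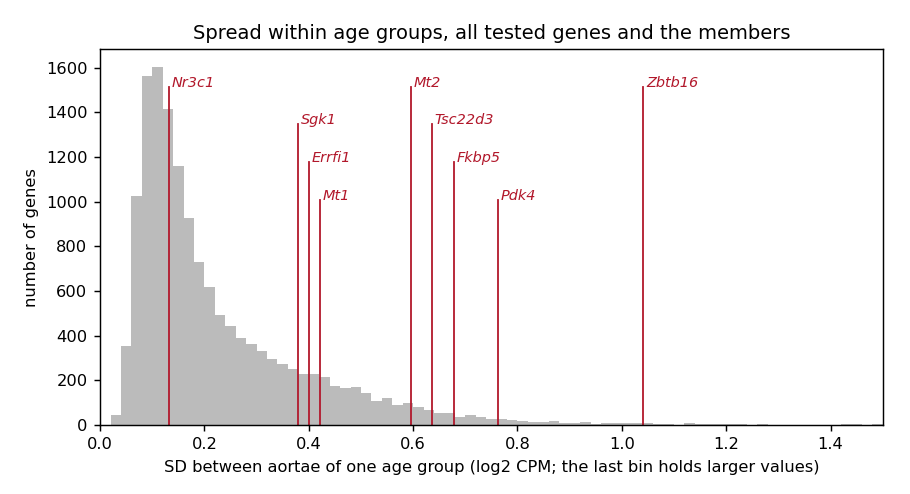
Histogram of the SD of log2 CPM between aortae of the same age for the 14614 tested genes (horizontal axis; vertical axis, number of genes), with the 9 genes as red lines at heights chosen for legibility. *Nr3c1* sits in the bulk of the distribution, and the 8 targets lie to its right, with *Zbtb16* farthest out.

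The same aortae carried this spread. Young replicates 4 and 5 were above their group mean for all 8 targets, and young replicate 5 was the highest young aorta for 6 of them. Young replicate 3 was below the mean for all 8 and the lowest for 5, and young replicate 1 was above it only for *Mt1*. In the old group, replicate 2 was above the mean for all 8 targets and the highest for 7, and replicate 3 was below it for all 8 and the lowest for 6. Averaged over the 8 targets, young replicates 1 to 5 deviated from their group mean by -0.51, 0.01, -0.62, 0.54 and 0.58 log2 CPM. Old replicates 1 to 5 deviated by 0.02, 0.72, -0.56, -0.22 and 0.04. Each age group thus held at least 1 aorta with uniformly high and 1 with uniformly low levels of these genes.

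Other measures of these aortae are given beside this pattern, and their part in it was not tested. Old replicate 2, high for the targets, had the highest mitochondrial share, 11%. Young replicates 4 and 5, also high for the targets, had 4.80% and 4.5%, the lower end of the range. The summed adipocyte markers were highest in young replicate 1 (27633), where 7 of 8 targets were below the group mean, and, among the old, in replicate 2 (10262), where all 8 were above it. The 16 immediate early genes, which respond to handling and tissue dissociation, summed to most in young replicates 1 and 3 (47478 and 45574), both low for the targets, and in the old group to most in replicate 2 (33813) and least in replicate 3 (20090). The endothelial markers were likewise highest in young replicate 3 (35372) and lowest among the old in replicate 3 (10378), both low for the targets. The macrophage markers peaked in old replicate 3 (19515). For the endothelial, adipocyte and immediate early lists, the young aorta with the highest sum was low for the targets and the old aorta with the highest sum, replicate 2, was high for them.

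**Figure D4:**
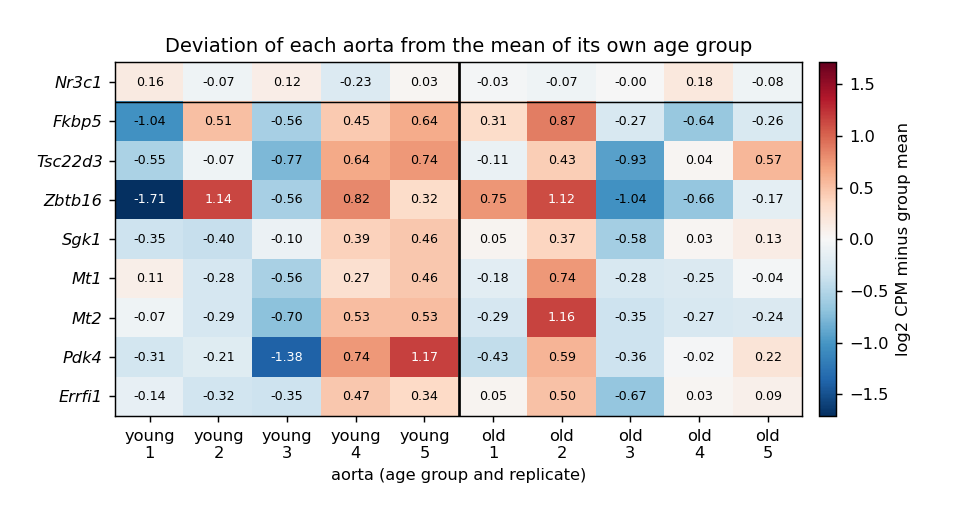
Deviation of log2 CPM from the mean of the own age group for the 9 genes (rows) in the 10 aortae (columns), red above and blue below the mean, with the value in each cell. Columns are largely of a single colour for the 8 targets: red in young replicates 4 and 5 and old replicate 2, blue in young replicate 3 and old replicate 3.

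Pairs of the 9 genes were compared after removal of the group means, by Pearson's r and Spearman's rho of log2 CPM over the 10 aortae. Each p came from an exact two-sided permutation within groups (14400 orders) and was adjusted over the 36 pairs computed. All 28 pairs of target genes correlated positively, in the young and in the old group alike, with a median r of 0.682. Among all pairs of tested genes 49.9% were positive and 3.71% reached 0.682. The pairs share 10 libraries and are not independent of each other. By r, 8 of the 36 pairs passed an adjusted p of 0.05. By rho 8 pairs passed too, and 3 passed by both measures. The 3 were *Mt1* with *Mt2*, *Tsc22d3* with *Pdk4*, and *Mt2* with *Pdk4*.

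*Mt1* and *Mt2* formed the closest pair (r = 0.972, exact permutation p = 0.000347, adjusted 0.0125; rho = 0.90, p = 0.00431, adjusted 0.0388), and without the 2 aortae farthest from the median of the group-centred *Mt1* values r was 0.930. The cochaperone gene *Fkbp5* and the transcription factor gene *Zbtb16* came together in the same way (r = 0.922, exact permutation p = 0.00187, adjusted 0.015; rho = 0.80, adjusted 0.0575; r = 0.809 without 2 aortae). *Sgk1* went with *Errfi1* (r = 0.937, exact permutation p = 0.00347, adjusted 0.0208; rho = 0.80, adjusted 0.0575; r = 0.878 without 2 aortae), so the mouse-to-mouse differences of *Errfi1* ran with those of a gene that was not called between ages. *Tsc22d3* went with *Pdk4* (r = 0.860, exact permutation p = 0.00208, adjusted 0.015; rho = 0.90, adjusted 0.0388; r = 0.919 without 2 aortae). The other 4 pairs past the threshold by r were *Mt1* with *Pdk4*, *Mt2* with *Pdk4*, *Tsc22d3* with *Errfi1* and *Pdk4* with *Errfi1*, with r from 0.764 to 0.881. Over all 8 pairs, r without the 2 aortae farthest from the median of the first gene named in each stayed between 0.761 and 0.954. How many pairs passed depended on single aortae: 3 passed by r without young replicate 3 and 3 without old replicate 2, and 5 without young replicate 1 and 5 without young replicate 5.

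*Nr3c1* had values of the other sign, but no inverse relation with the targets was established. All 8 of its correlations with the targets were negative, from -0.72 with *Zbtb16* (exact permutation p = 0.0361, adjusted 0.108; rho = -0.75, adjusted 0.0807) and -0.71 with *Fkbp5* (exact permutation p = 0.0417, adjusted 0.110; rho = -0.65, adjusted 0.131) to -0.37 with *Sgk1*. None passed after adjustment. Without young replicate 4 and old replicate 4, the farthest from the median of its group-centred values, these first 2 were -0.82 and -0.76, and that with *Sgk1* was -0.22. The targets correlated with each other, so the 8 negative signs do not count as 8 separate observations. With the mean deviation of the 8 targets, *Nr3c1* had r = -0.64. A positive r with that mean was found for 48.6% of all tested genes outside the members, so a negative sign alone was common. The sign share does not describe the size of the value: an r below -0.7, a limit that *Nr3c1* did not reach, was found for 4.07% of those genes.

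**Figure D5:**
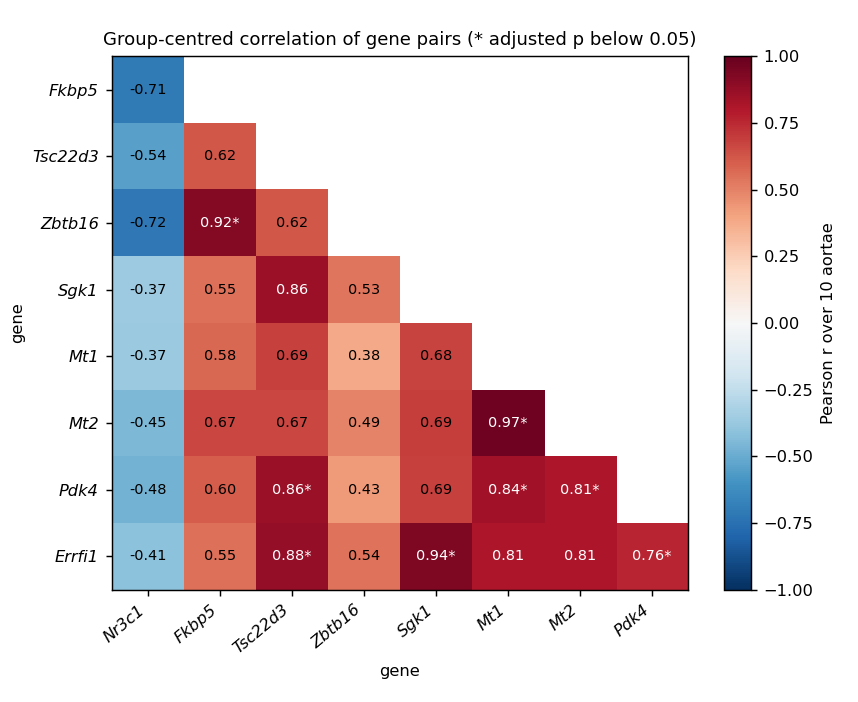
Pearson's r of log2 CPM after removal of the group means for the 36 pairs of the 9 genes (both axes, genes), with the colour scale from -1 to 1 and an asterisk at an adjusted p below 0.05. All 28 cells between target genes are positive, from 0.38 to 0.97, and the 8 cells of the *Nr3c1* column are negative.

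Among all other tested genes, those most like each member over the 10 group-centred aortae were picked by r alone and are given as a description. *Fkbp5* was followed most closely by *Il17b* (r = 0.978), *Fbxo40* and *Zfp809*. *Zbtb16* was followed by *Rundc1* (0.975), the nuclear receptor gene *Nr4a3* and *Map1s*. *Sgk1* was followed by the transcription factor gene *Klf6* (0.963), *Prpf4* and *Ppp1r15a*, a gene of the stress response. *Mt1* and *Mt2* shared *Slc10a6*, *Tcim* and *Gmeb2*, which encodes a glucocorticoid modulatory element binding protein, as their closest 3, with r from 0.924 to 0.958. *Pdk4* was followed by *Trp53inp1* (0.956), *Arrdc3* and *Dgkd*, *Tsc22d3* by *Agap3* (0.942), *Brsk1* and *Cyth2*, *Errfi1* by *Bap1* (0.959), *Hmbox1* and *Prpf4*, and *Nr3c1* by the hedgehog receptor gene *Ptch1* (0.961), *Plekha2* and *Kif21b*. They were picked as the highest of 14605 candidates over 10 aortae.

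A second list of genes known to be induced by glucocorticoids moved in part with the same aortae. Of its 32 genes 30 were tested, and their median r with the mean deviation of the 8 targets was 0.516, against -0.0164 over all 14605 tested genes outside the 9. Above r = 0.7 were 10 of the 30, or 33.3%, against 3.66% of those genes. Positive values were found for 86.7% of the 30, against 48.6% of those genes. The highest, chosen after their values were seen, were the kinase gene *Map3k6* (0.950), the clock gene *Per1* (0.934), the metabolic transcription factor gene *Klf15* (0.925) and the arrestin-related gene *Arrdc2* (0.909). The lowest, chosen likewise, were *Lpin1* (-0.378) and *Anxa1* (-0.352). *Per1* had 1305, 1361, 1100, 2334 and 2422 normalized counts in young and 1912, 3246, 1717, 1770 and 2627 in old replicates 1 to 5. Its highest young aortae were again replicates 4 and 5, and its highest old ones were replicate 2 and, second, replicate 5. Old replicate 5 was near the group mean when averaged over the 8 targets, and among the 2 highest old aortae for 6 of them. *Map3k6* had 485, 684, 431, 787 and 874 in young and 834, 1262, 634, 646 and 670 in old replicates 1 to 5. Of 10 tested genes known to be repressed by glucocorticoids, none exceeded 0.7 and 1 lay below -0.7, against 4.07% of all tested genes outside the 9, and their median r was -0.05. The 1 gene was *Lif* (-0.76), a cytokine gene named after its value was seen, while *Mmp3* stood at 0.666. The macrophage markers had a median r of -0.57, the immediate early genes of -0.0048 and the clock genes of 0.299. All these genes share the 10 libraries, and the values are a description without a test.

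Between ages few genes of the induced list were called. Of its 30 tested genes none was higher and 1 was lower in edgeR, against 6.48% and 4.99% of all tested genes. The called gene was the transcription factor gene *Foxo1*, with 1846 ± 123 normalized counts (SD, n = 5) in young aortae against 1390 ± 75 (SD, n = 5; log2 fold change -0.40, adjusted p = 0.00109 in edgeR). At an unadjusted p of 0.05 edgeR had 2 higher and 2 lower, and DESeq2 called 1 higher and 2 lower. The list was split evenly, with 15 of 30 positive and a median log2 fold change of 0.02. Of the 10 tested genes of the repressed list 3 were higher in old aortae and none was lower in edgeR, while DESeq2 and limma-voom each called 4 higher and 1, *Lif*, lower. At an unadjusted p of 0.05 edgeR had 5 higher and 2 lower. The 3 were the chemokine genes *Ccl2* (log2 fold change 2.02, adjusted p = 0.0195) and *Ccl7* (1.91, adjusted p = 0.0110), and the matrix protease gene *Mmp3* (1.10, adjusted p = 0.000251), with a list median of 0.55. Of the macrophage markers 3 of 7 were also higher in old aortae, and their part was not tested. Among the old aortae their sum was highest in replicate 3, and *Ccl2* and *Ccl7* were highest in replicate 2. Levels of both chemokines were low, at 16 ± 9.73 and 11.4 ± 5.35 normalized counts in young aortae.

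The machinery around the receptor changed in part. Of 18 genes 17 were tested, with 1 upregulated and 4 downregulated in the aged vessels, against 6.48% and 4.99% of all tested genes. At an unadjusted p of 0.05 edgeR had 2 higher and 9 lower, and DESeq2 called 2 higher and 5 lower. The list had a median log2 fold change of -0.17. *Hsd11b1*, the enzyme that regenerates active glucocorticoid inside cells, had 1102, 954, 742, 868 and 880 normalized counts in young and 1265, 1267, 1541, 1497 and 1610 in old replicates 1 to 5. Every old aorta was above every young one, with a log2 fold change of 0.67 (SE 0.101) and an adjusted p of 0.00121 in edgeR. *Hsd11b2*, which inactivates the hormone, was too low to be tested, at 4.62 ± 2.65 and 1.99 ± 1.81 normalized counts.

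Of 5 chaperone and cochaperone genes that keep the receptor able to bind hormone, *Hsp90aa1* and *Ptges3* were called lower in old aortae. *Hsp90ab1*, *Fkbp4* and *Stip1* did not pass after adjustment but had the same direction. Their log2 fold changes were -0.35 (unadjusted p = 0.0116, edgeR), -0.31 (unadjusted p = 0.0228) and -0.48 (unadjusted p = 0.0483). *Hsp90aa1* had 6411, 15483, 10457, 11772 and 11215 normalized counts in young and 8150, 6212, 5906, 6267 and 5978 in old replicates 1 to 5. Young replicate 1 was as low as the old aortae, and the groups overlapped (log2 fold change -0.76, SE 0.194, adjusted p = 0.0300, edgeR). *Ptges3*, which encodes the cochaperone p23, differed by a log2 fold change of -0.43 (adjusted p = 0.0114). The corepressor gene *Nrip1* (-0.26, adjusted p = 0.0186) and *Srd5a1*, an enzyme that reduces steroid hormones (-0.53, adjusted p = 0.0493), were also lower. *Nr3c2*, which encodes the mineralocorticoid receptor that also binds corticosterone, had a log2 fold change of 0.22 and an adjusted p of 0.349. The receptor coactivator genes *Ncoa1*, *Ncoa2* and *Ncoa3* and the corepressor gene *Ncor1* gave no call in edgeR. The groups of *Ncoa1* did not overlap (log2 fold change -0.17, adjusted p = 0.0949, edgeR), as for 9.92% of all tested genes.

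Relatives and partners of the 9 genes were counted beside 6.48% of all tested genes called higher and 4.99% called lower. Of 13 paralogues 9 were tested and none passed in edgeR or DESeq2 in either direction (1 was lower at an unadjusted p of 0.05), with a median log2 fold change of 0.02. Of 12 partner genes, which include the receptors that *Errfi1* inhibits and the substrates of *Sgk1*, *Ndrg1*, a substrate of the SGK1 kinase, was higher (log2 fold change 0.50, adjusted p = 0.0114, edgeR), *Hsp90aa1* was lower as given above, and the other 10 did not pass.

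Rhythmic and early response genes were counted because glucocorticoid release follows the day and stress. Of 19 clock genes 8 rose and 5 fell with age, against 6.48% and 4.99% of all tested genes. Those with the smallest p were *Per3* (log2 fold change 1.46, adjusted p = 5e-05, edgeR), *Tef* (1.03, adjusted p = 0.000194), *Hlf* (1.31, adjusted p = 0.000375) and *Bhlhe41* (1.26, adjusted p = 0.00124). The largest change of the list was a fall, that of *Nfil3* (-2.74, adjusted p = 0.00173), a repressor of clock output genes named here after its value was seen. *Per1*, which is both a clock gene and a glucocorticoid target, was not among them (log2 fold change 0.41, adjusted p = 0.376). Of 16 immediate early genes 1 was higher and 4 were lower, beside the same 6.48% and 4.99% of all tested genes. The higher one was *Junb* (log2 fold change 0.77, adjusted p = 0.00957). Among the lower ones were *Atf3* (-2.28, adjusted p = 0.00596), *Jund* (-0.45, adjusted p = 0.00723) and *Fosl2* (-0.71, adjusted p = 0.0309). *Errfi1* fell alongside these early genes, and the part of either list in its fall was not tested.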

How the data were processed

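Total RNA from 10 aortae, 1 per mouse, was made into stranded mRNA libraries per the labels. The authors trimmed reads with fastp 0.20.0, aligned them with STAR 2.7.0f to GRCm38 with GENCODE M22, and counted reads per gene with featureCounts of Subread 1.6.4; the strand setting and the treatment of reads with several matches are not given in the sources used here. The deposited values are these raw counts, whole numbers without normalization.

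Genes were tested with edgeR 4.0.16 (R 4.3.3; quasi-likelihood F test, robust, TMM scaling, filterByExpr) for old against young aortae without covariates, with Benjamini-Hochberg adjustment over 14614 genes and a call at 0.05. Normalized counts used the size factors of DESeq2 1.42.0. Positions and exonic lengths came from GENCODE M21. The count test and the permutation test were tested on simulated data. Alternatives were DESeq2, limma-voom (limma 3.58.1), other scalings and filters, a replicate block, a threshold of 0.01, and each aorta left out. Replicates are separate mice. Same-numbered young and old aortae did not deviate together (r from -0.3 to 0.132), and the labels state no pairing. These values cannot exclude that same-numbered aortae were handled together.

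The 9 genes and all lists were chosen with earlier results of these data known. Genes named were the 9 members, the called genes of the lists on the receptor system, induced and repressed targets, paralogues, partners, metal response and fasting, at most 4 called immediate early and clock genes each by smallest p, and the 3 genes most like each member; marker genes are named only beside a result. Genes of the receptor system that were not called, and the induced targets *Map3k6*, *Per1*, *Klf15*, *Arrdc2*, *Lpin1* and *Anxa1*, were named outside this rule, after their values were seen. The same holds for the immediate early gene *Fos*. Some genes that the rule would name are not reported here. The number of libraries and their depth, from 19640401 to 22886153 counts, limit precision.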

Additional observations from a re-analysis of the deposited data

Results flagged for a closer look

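In 18 groups of 5 aortae (9 genes at 2 ages), 3 values lay far from the other 4, with a gap to the nearest value above 0.71 of the whole range of the group. Chance alone gives such a value in about 1 of 20 groups of independent, normally distributed values, while these 18 groups share 10 libraries. *Mt2* in old replicate 2 stood at 1843.76 normalized counts, with a gap of 0.952 of the range, while the other 4 old aortae lay between 645 and 702. *Mt1* in the same aorta stood at 3347.53, with a gap of 0.817 of the range. The 2 genes correlated closely (group-centred r = 0.972), so their flags do not count as 2 separate observations. Old replicate 2 also had the highest mitochondrial share of reads, 11%. *Nr3c1* in old replicate 4 stood at 4380.79, with a gap of 0.74 of the range, above the other 4 old aortae at 3689 to 3869 and within the young range.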

How the results depend on the processing

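The call of *Errfi1*, and of no other member, was made in the main setting and in all 18 alternatives, among them the replicate block, with an adjusted p between 1.43e-06 and 0.0154. The replicate block called 1261 genes in all against 1676 without it, and 1 member. Same-numbered aortae had not deviated together, and 2 of 5 young aortae correlated best with their own number. Whether the numbers pair the aortae is not known. Over all genes, DESeq2 called 2325, and a threshold of 0.01 called 658 with edgeR; leaving out each aorta gave 1132 to 2367. The log2 fold change of *Fkbp5*, 0.18, lay between -0.10 and 0.34 with each aorta left out; it was -0.01 without young replicate 1 and -0.10 without old replicate 2, and the cause was not tested. The number of member pairs with a correlation past the threshold, 8, lay between 3 and 9 with each aorta left out (fewer aortae allow fewer permutations) and was 9 on log2(normalized count + 1). All other values of the members kept their direction and their side of the threshold. With 5 mice per group, the wide spread of the targets limits what could be detected: the interval of *Zbtb16* still allowed 0.318 to 1.92 times the young level.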
